A study of Mus musculus with 8 samples.

Results

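In retinal ganglion cells (RGCs) of mice that overexpressed Ezh2, 3689 regions of the genome carried a peak of open chromatin in each of the 3 Ezh2 libraries and in none of the 3 GFP or 2 Ezh2-Y726D libraries. They were chosen by this pattern from 186387 merged regions on chromosomes 1 to 19, of which they made up 1.98%, and are called Ezh2-only regions here. A merged region joins the peaks of all 8 libraries that share at least 1 bp. Since the pattern of peaks selected the regions, their presence in Ezh2 libraries and absence elsewhere is a description and was not tested.

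ATAC-seq, whose transposase cuts and tags accessible DNA, was run on cells of adult C57BL/6J mice that had received AAV2 in the vitreous body. The virus expressed GFP, Ezh2 or Ezh2-Y726D, the last a catalytically dead Ezh2. All 3 groups had the optic nerve crushed 2 weeks later, and 50000 cells per library were sorted 3 days after the crush, so no group had an intact nerve and the GFP cells kept their own Ezh2. The sort was for live cells with surface Thy1, a protein of RGCs that mouse T cells also carry. The labels do not say whether replicates came from separate animals, so the spread between replicates may be technical. More cells of a type and more accessible chromatin per cell cannot be told apart in such libraries.

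Ezh2 is the enzyme of Polycomb repressive complex 2 (PRC2), which methylates lysine 27 of histone H3 and is known for keeping developmental genes silent and their chromatin compact. Besides this activity, Ezh2 has functions that do not need methylation, and the catalytically dead form was used to tell them apart. The study proposes that this form might also act as a dominant negative, that is, block the cells' own Ezh2. It may therefore not separate them cleanly. The Ezh2-only regions are the class with peaks in the libraries of active Ezh2 and none in those of the catalytically dead form or GFP. Whether the enzyme's activity set them apart was not tested.

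A missing peak is not a closed region. Each peak comes with a fold, the authors' value for the pileup of reads at the summit over the background, and low folds took steps of 1 read, which gave a background of 2.69 to 3.74 reads in the GFP libraries, 3.09 to 3.59 in the Ezh2 libraries, and 2.39 and 3.12 in the Ezh2-Y726D libraries. The number of peaks ran from 112939 to 135895, and GFP replicate 3 was the longest GFP list with 133674. Over this background the lowest called pileup was 9 to 11 reads in GFP and 8 and 10 reads in Ezh2-Y726D libraries. Where the steps could be read, the Ezh2-only regions held a median of 17, 17 and 18 reads in Ezh2 replicates 1, 2 and 3 (1759, 1834 and 1772 of the 3689 regions). A region listed only with Ezh2 can therefore have been covered by several reads in the other libraries without being called.

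Of 31223 promoters in the RefSeq table (GRCm38.p6, 250 bases before to 50 after the start site), 85 were overlapped by an Ezh2-only region. The 5 of protein-coding genes whose region ranked highest are printed here, because they show the sequence of such a region at genes with a known role. Capitals mark matches on either strand, so that some read as the reverse complement. The letters searched for ETS factors, which regulate many lymphocyte genes, were AGGAAG. Those for RUNX factors, needed in T cell development, were TGTGGT. Those for NFAT, which acts after T cell receptor signalling, were TGGAAA. Matches to the AP-1 letters TGANTCA would be in capitals too, and these promoters held none. The promoters are those of Pvrig (chr5:138341681-138341980, + strand), an inhibitory receptor of T and natural killer cells, Trat1 (chr16:48772013-48772312, - strand), an adaptor of the T cell receptor, Il21 (chr3:37232587-37232886, - strand), a cytokine of activated helper T cells, Slc28a2 (chr2:122426185-122426484, + strand), a nucleoside transporter, and Ifi214 (chr1:173535908-173536207, - strand), an interferon-inducible gene.
Pvrig: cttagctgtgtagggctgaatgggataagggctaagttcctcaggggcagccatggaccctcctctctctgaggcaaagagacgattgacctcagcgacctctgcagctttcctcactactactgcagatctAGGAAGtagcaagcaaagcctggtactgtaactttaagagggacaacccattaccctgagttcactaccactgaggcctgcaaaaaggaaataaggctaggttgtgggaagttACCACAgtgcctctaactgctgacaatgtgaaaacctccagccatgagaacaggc
Trat1: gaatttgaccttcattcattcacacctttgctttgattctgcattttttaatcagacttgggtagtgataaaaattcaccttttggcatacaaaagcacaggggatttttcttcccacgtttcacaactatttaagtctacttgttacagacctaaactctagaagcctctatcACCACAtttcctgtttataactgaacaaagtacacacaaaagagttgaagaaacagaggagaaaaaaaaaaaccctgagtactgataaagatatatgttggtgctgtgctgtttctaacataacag
Il21: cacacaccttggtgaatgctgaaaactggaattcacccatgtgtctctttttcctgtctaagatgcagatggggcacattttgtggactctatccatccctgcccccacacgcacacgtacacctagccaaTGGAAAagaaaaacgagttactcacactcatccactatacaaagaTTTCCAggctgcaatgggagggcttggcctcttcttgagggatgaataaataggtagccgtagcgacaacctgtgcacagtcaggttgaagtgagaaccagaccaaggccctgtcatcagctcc
Slc28a2: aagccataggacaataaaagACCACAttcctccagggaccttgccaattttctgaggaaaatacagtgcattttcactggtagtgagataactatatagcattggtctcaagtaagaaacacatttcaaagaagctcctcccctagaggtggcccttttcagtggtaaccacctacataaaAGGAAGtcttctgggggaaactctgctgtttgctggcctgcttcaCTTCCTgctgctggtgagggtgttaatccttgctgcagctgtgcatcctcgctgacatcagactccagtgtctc
Ifi214: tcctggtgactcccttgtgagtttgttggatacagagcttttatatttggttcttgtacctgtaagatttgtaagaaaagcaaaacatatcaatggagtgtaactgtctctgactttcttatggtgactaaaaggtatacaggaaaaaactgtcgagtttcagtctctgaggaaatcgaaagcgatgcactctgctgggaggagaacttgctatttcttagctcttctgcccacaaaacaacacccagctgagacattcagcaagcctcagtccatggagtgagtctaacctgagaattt

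The Pvrig sequence held an ETS match that began 118 bases before the start site and a RUNX match 5 bases before it. Trat1 held a RUNX match 76 bases before the start, and Il21 held NFAT matches 119 and 74 bases before it. Slc28a2 held ETS matches 69 and 24 bases and a RUNX match 230 bases before the start. The Ifi214 promoter held no match to these motifs, which says only that these letters are not in this window.

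The region over the Pvrig start site (chromosome 5, 138341587 to 138342267) had folds of 8.01, 5.78 and 5.45 in Ezh2 replicates 1 to 3. Pvrig had 2 regions in all and both were Ezh2-only. The region at Ifi214 (chromosome 1, 173535568 to 173536212) was the highest at a protein-coding start site, with folds of 7.57, 6.46 and 7.85. The Slc28a2 region (chromosome 2, 122426196 to 122426679) varied more between replicates, with folds of 4.40, 7.15 and 6.10. Trat1 (chromosome 16, 48771992 to 48772502) had folds of 6.59, 4.62 and 3.92, highest in replicate 1. Il21 (chromosome 3, 37232564 to 37233148) was even across replicates at 5.02, 4.78 and 4.73.

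Promoters overlapped by an Ezh2-only region were poor in CpG. Their median number of CpG was 3 in 300 bases and their median GC content 49.0%, against 21 CpG and 61.3% in the 15212 promoters overlapped by a region open in all 8 libraries. The 365 promoters overlapped by a region with a peak in all Ezh2 and all GFP but no Ezh2-Y726D library were alike in this, with 5 CpG and 49.7%. At least 10 CpG were found in 12.9% of the 85, 11.8% of the 365 and 44.1% of all promoters.

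RUNX matches were in 34.1% of the 85 promoters, 29.9% of the 365, 11.9% of those open in all 8 libraries and 16.7% of all. ETS matches were in 44.7% of the 85, 61.4% of the 365 and 35.0% of all. The GC-box letters GGGCGG are bound by KLF and SP factors. They were in 17.6% of the 85, 23.0% of the 365, 62.7% of the promoters open in all 8 libraries and 36.1% of all. CCAAT was in 20.0%, 28.5%, 36.5% and 37.2% of the same sets. AP-1 (11.8% of the 85 and 7.83% of all), NFAT (25.9% and 21.5%) and TCF (CTTTGA, 21.2% and 15.9%) lay closer together in percentage points. So did E-box (CAGCTG, 20.0% and 16.4%), CRX (TAATCC, 10.6% and 7.06%) and CRE (TGACGTCA, 4.71% and 1.84%), the last with 4 of the 85 promoters. Promoters open in all 8 libraries held AP-1 in 4.85%, NFAT in 16.0%, TCF in 11.3%, E-box in 16.1%, CRX in 5.54% and CRE in 3.10%. ETS and NFAT letters share GGAA, base composition differs between these sets of promoters, and 85 promoters are few, so the shares are given without a test.

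**Figure D1:**
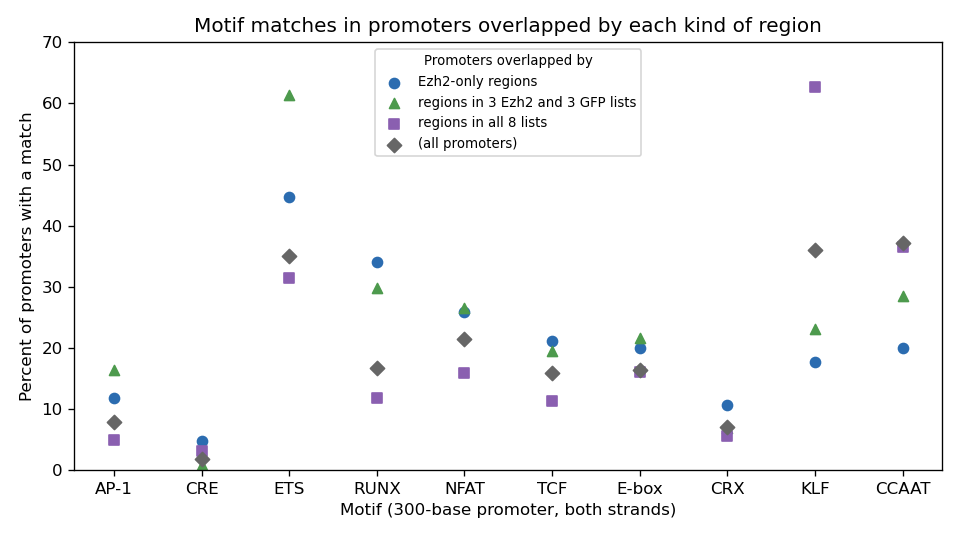
Percent of promoters (y axis) with a match to each of 10 motifs (x axis) among promoters overlapped by Ezh2-only regions, by regions in all Ezh2 and GFP but no Ezh2-Y726D lists, by regions in all 8 lists, and among all promoters. The promoters of Ezh2-only regions held RUNX letters in 34.1% and GC-box (KLF) letters in 17.6%. Those of regions in all Ezh2 and GFP but no Ezh2-Y726D lists were near, at 29.9% and 23.0%. Promoters open in all 8 lists were at 11.9% and 62.7%, and all promoters at 16.7% and 36.1%.

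Of 919 annotated miRNA hairpins, 3 lay in Ezh2-only regions, 193 in any merged region and 143 in regions open in all 8 libraries. The mature forms from these 3 hairpins are shown with the seed (bases 2 to 8) in capitals, as it decides which targets a miRNA can pair with, and no seed was shared among them.
mmu-miR-155-5p: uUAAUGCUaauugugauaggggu
mmu-miR-155-3p: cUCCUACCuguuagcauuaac
mmu-miR-3965: uGCUUAUCagccugauguu
mmu-miR-7094-1-5p: uCUGAAGAggauacagggucuga
mmu-miR-7094-3p: uACUCUGCuguucucuccaca

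miR-155 is induced in activated lymphocytes and macrophages. Its hairpin (chromosome 16, 84714140 to 84714204) lay inside an Ezh2-only region of 457 bp whose folds were 4.33, 3.50 and 2.84 in Ezh2 replicates 1 to 3. The region over Mir3965 on chromosome 5 had folds of 4.74, 3.95 and 2.73. That over Mir7094-1 on chromosome 12, inside the immunoglobulin heavy chain locus, had 6.11, 6.69 and 4.80. Replicate 3 was the lowest in all 3.

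As a class the Ezh2-only regions were narrow and of modest height. Their median width was 448 bp, against 559 bp for all merged regions and 941 bp for the 68278 regions open in all 8 libraries. Regions with peaks in all lists of GFP alone or of Ezh2-Y726D alone were narrower still, with medians of 382 and 375 bp. A narrow width is thus not particular to the Ezh2-only regions. The median fold was 4.12, 3.92 and 3.83 in Ezh2 replicates 1, 2 and 3, where the median over all peaks of the same lists was 4.88, 4.80 and 4.58. Ranked by fold within its own list, the median region stood at percentile 31.5, 31.3 and 33.4. In each Ezh2 list 68.7 to 71.0% of the regions reached a −log10 q of 5 (q is the false discovery rate given by the authors' caller).

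**Figure D2:**
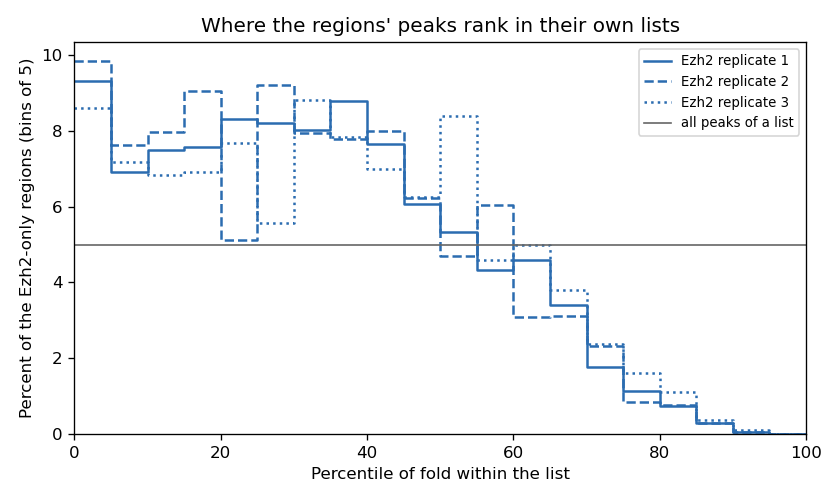
Percent of the 3689 Ezh2-only regions (y axis, bins of 5 percentiles) by the rank of their fold within each of the 3 Ezh2 lists (x axis), with the even share of all peaks as a grey line. The regions fill the lower and middle ranks, with medians at percentiles 31.3 to 33.4.

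The 3 Ezh2 libraries placed these peaks alike. Summits of a region lay within 100 bp of each other in 74.4 to 75.4% of cases for the 3 pairs of libraries, at a median distance of 39 to 42 bp. Across the regions, folds correlated between pairs of libraries with Spearman's rho of 0.64 to 0.65. This is a description over 3689 regions of the same 3 libraries, selected for a peak in each.

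The 10 regions with the highest mean rank had folds of 6.98 to 10.0. The highest lay on chromosome 12 (107404695 to 107405227), 13694 bp from the noncoding gene Gm17052, with folds of 10.0, 8.54 and 9.81. A region in Lpo, which encodes the secreted enzyme lactoperoxidase, followed with 8.55, 8.31 and 9.16 (chromosome 11, 87808215 to 87808844). Folds in Mynn, a zinc finger protein, were 8.30, 8.77 and 7.85, and those in Map3k2, a kinase of the MAPK cascades, 8.06, 8.31 and 8.28. The others lay in Septin9, where Gapdhs and Sbsn adjoin, in Myl1 and Rpap2, and between genes near Gm30662 and Adck1. None of these genes is in a marker list used here.

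**Figure D3:**
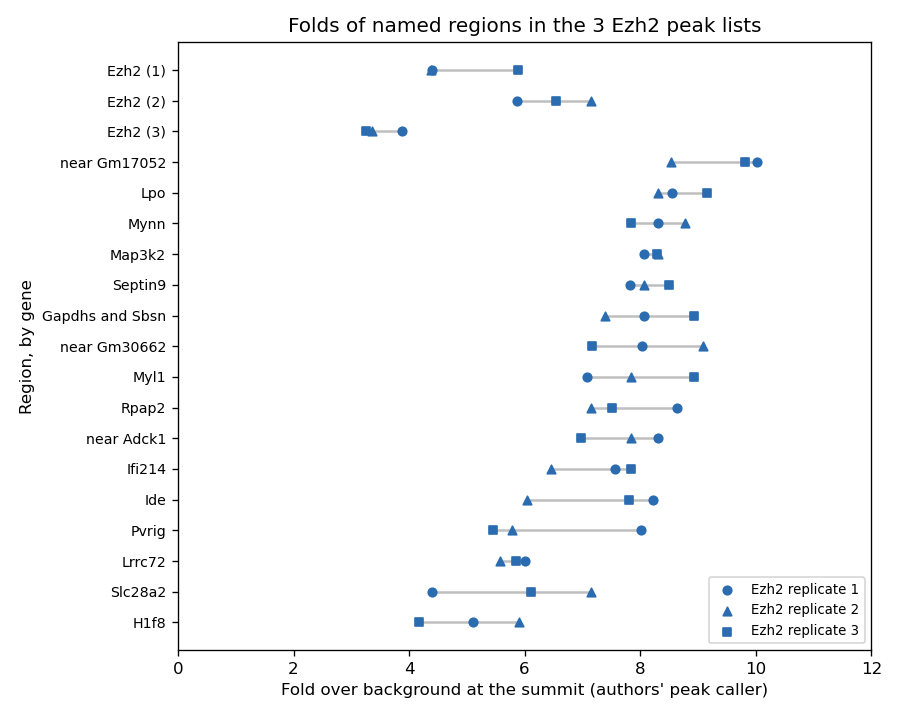
Fold at the summit (x axis) of the 3 regions in Ezh2, the 10 highest regions and the 6 highest at protein-coding gene starts (y axis, by gene), with a point for each Ezh2 replicate and a grey line from lowest to highest. The 10 highest regions lie between 6.98 and 10.0, and the regions in Ezh2 between 3.25 and 7.15.

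At the weak end, regions in Srgap2, a regulator of neuronal migration, and in Rasa3 passed with folds of 1.72 to 1.88 and 1.83 to 1.91. A region 1435 bp from Vmp1 passed with 1.80 to 1.92. Just outside the rule, a region in Cdyl2 had Ezh2 folds of 9.04 to 9.92 and a region in the histone chaperone gene Hira had 8.94 to 10.2, and each was left out for a peak in 1 other list. A region in Ikzf3, a lymphocyte transcription factor, had folds of 6.23 and 6.32 in Ezh2 replicates 2 and 3 and no peak in replicate 1.

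Many regions missed the rule by 1 list. With all 3 Ezh2 peaks and no Ezh2-Y726D peak, 3087 regions had a peak in 1 GFP list, 3210 in 2 and 6791 in all 3. GFP replicate 3 alone kept out 2253 regions, against 482 for replicate 1 and 352 for replicate 2. The rule gave 5950 regions without GFP replicate 3 and 5631 without Ezh2 replicate 2. On the other side, 456 regions had a peak in 1 Ezh2-Y726D list and 934 in both, with none in GFP. Peaks in 2 Ezh2 lists and nowhere else were found in 4581 regions. The reverse patterns held 618 regions for GFP alone (all 3 lists) and 4417 for Ezh2-Y726D alone (both lists), and a rule over 2 lists is easier to meet than one over 3.

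The Ezh2-only regions lay mostly inside genes and away from their ends. Inside a gene were 67.1% (2476), close to 68.5% of all merged regions, and 32.9% were between genes. Within 1 kb of a gene end were 10.4% (382), against 15.2% of all regions and 26.4% of the regions open in all 8 libraries, and within 1 kb of a start site 4.34% (160), against 9.10% and 18.7%. By chromosome the share of regions that were Ezh2-only ran from 1.52% on chromosomes 4 and 14 to 2.46% on chromosome 10. Neighbouring Ezh2-only regions were a median of 212 kb apart and 6.13% of the gaps were 10 kb or less. No peak of the other 5 libraries was found within 250 bp of 3527 of them and within 10 kb of 494.

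By gene list, the share of regions that were Ezh2-only ran from 0 at rod genes to 10.8% at genes of T cell activation. Of the 435 regions in or within 1 kb of 30 genes of T cell activation, 47 (10.8%) were Ezh2-only, and of the 148 at 20 T cell genes 8 (5.41%), where the background over all regions was 1.98%. Axon guidance genes had 4 of 1061 regions (0.377%) and neuronal ion channel and transmitter receptor genes 2 of 740 (0.270%). Without GFP replicate 3 the shares were 15.5% for T cell activation and 13.7% for T cell genes, with a background of 3.24%. The list of T cell activation, like those of cytotoxic and natural killer cells and of pan-leukocyte genes, was put together after the regions had been seen and carries no weight as a test.

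Among the T cell activation genes, 20 of 30 held an Ezh2-only region, beside 1716 of all 20665 protein-coding genes. This list was put together after the regions had been seen, so the count is a description. Genes were not matched for length or number of regions. The 30 genes had a median length of 51.1 kb and held 435 regions. Themis, needed for thymocyte selection, had 5 of 15 regions, with folds of 5.37, 5.96 and 6.47 at the highest (chromosome 10, 28694933 to 28695412). Ubash3b, a phosphatase that restrains the T cell receptor, had 5 of 37. Il2ra, the alpha chain of the interleukin 2 receptor, had 3 of 11, and the highest (chromosome 2, 11692947 to 11693478) showed folds of 6.84, 5.54 and 6.54. Stat4, the transcription factor of interleukin 12 signalling, had 3 of 25, with 7.82, 5.77 and 5.67 at the highest (chromosome 1, 52076308 to 52076886).

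Classical T cell genes with an Ezh2-only region included Bcl11b, Cd2, Cd247, Cd28, Cd6, Lck and Tcf7, with 1 each. Folds at Cd247, the zeta chain of the T cell receptor complex, were 3.76, 5.10 and 4.81. At Cd6 they were 3.55, 3.18 and 3.67, and at Bcl11b 2.85, 2.68 and 3.21, below the median of the class. Cytotoxic genes had 3 of 44 regions (6.82%), at Ccl5, Klrk1 and Klrb1c, and pan-leukocyte genes 7 of 163 (4.29%). Of these Dock2, a Rac activator of leukocytes, reached 4.64, 7.15 and 6.54.

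The same loci differed from Ezh2-Y726D whether or not GFP libraries had a peak. Over all regions, 16777 (9.001%) had a peak in 3 Ezh2 and no Ezh2-Y726D lists, and 22.0% of those were Ezh2-only. At T cell genes 34.5% of regions (51 of 148) had this pattern, but only 15.7% of the 51 lacked every GFP peak, and 24 of them had all 3. At microglia and macrophage genes the pattern was found in 36.5% (31 of 85), of which 1 region, in Csf1r, was Ezh2-only and 17 had all 3 GFP peaks. At T cell activation genes it was 33.1% (144 of 435), and 32.6% of these were Ezh2-only.

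**Figure D4:**
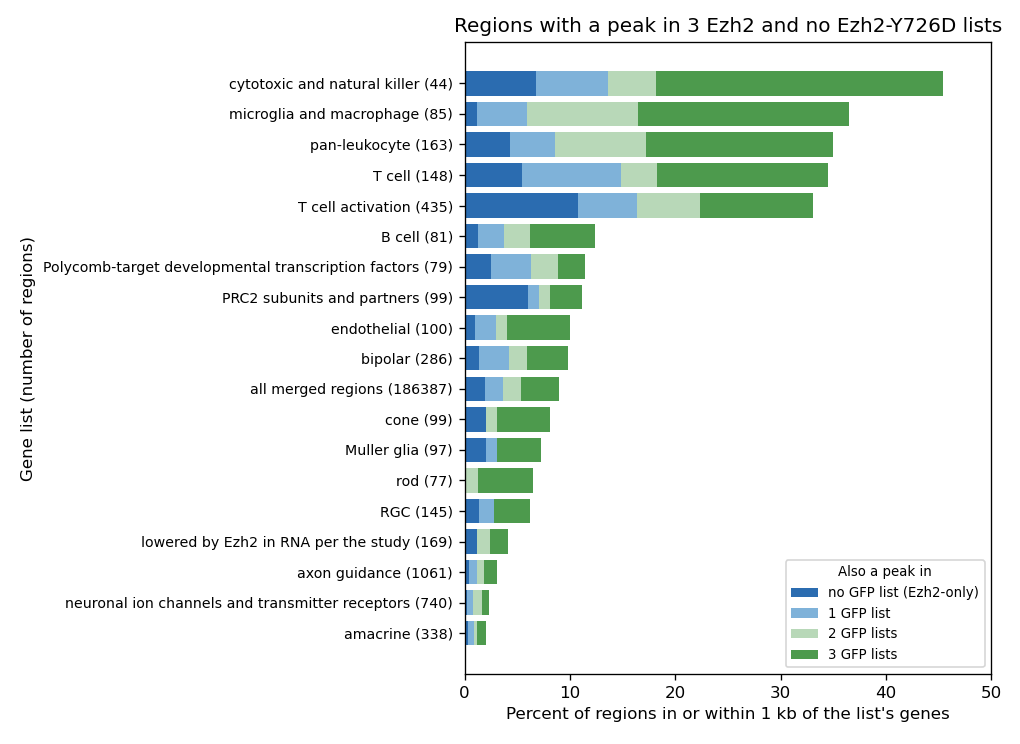
Percent of the regions in or within 1 kb of each list's genes (x axis; y axis, list and number of regions) that had a peak in 3 Ezh2 and no Ezh2-Y726D lists, split by how many GFP lists also had one. The T cell, T cell activation, cytotoxic, pan-leukocyte and microglia lists reach 33.1 to 45.5%, against 12.3% for B cell genes and 9.001% of all regions, and their Ezh2-only share (dark blue) runs from 1.18 to 10.8%. The list raised by Ezh2 (27 regions) is not drawn.

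T cell, pan-leukocyte, microglia and cytotoxic marker genes had fewer peaks at their ends in the Ezh2-Y726D libraries, counting all peaks and not only the Ezh2-only ones. Among the 20 T cell genes, 16 to 19 had a peak within 1 kb of an end in the GFP libraries and 19 in each Ezh2 library, but 9 and 8 in Ezh2-Y726D. Summed folds ran from 91.9 to 106 in GFP, 99.9 to 115 in Ezh2 and 45.7 to 51.2 in Ezh2-Y726D. Zap70, Cd28, Trac, Cd2, Lck, Lat, Cd3g, Cd8a and Cd8b1 were among those with no peak in either Ezh2-Y726D library. Of these, Lck also had none in GFP replicates 1 and 2, and Trac none in GFP replicate 2.

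Of 15 pan-leukocyte genes 14 or 15 had a peak in each GFP library, 15 in each Ezh2 library and 5 and 8 in Ezh2-Y726D, where Ptprc, which encodes CD45, had none. Their summed folds were 80.6 to 85.1, 79.4 to 86.5, and 43.6 to 50.3. For the 20 microglia and macrophage genes the numbers were 12 to 17, 15 to 17, and 4 in both, with summed folds of 68.1 to 89.7, 86.2 to 96.6, and 39.3 to 43.7. Cytotoxic and natural killer genes had 7 to 11, 11 to 13, and 2 and 3 of 15, with summed folds of 36.5 to 54.1, 59.8 to 62.9, and 10.6 to 15.1. T cell activation genes had 21 or 22 of 30 in GFP, 22 or 23 in Ezh2, and 13 and 14 in Ezh2-Y726D, with summed folds of 122 to 131, 133 to 148, and 84.4 to 85.5. In these last 2 lists, put together after the regions had been seen, the summed folds of GFP and Ezh2 did not overlap. The peaks summed include Ezh2-only ones, where the rule leaves GFP no peak, so this is partly set by the rule. In the T cell, pan-leukocyte, microglia and B cell lists the summed folds of GFP and Ezh2 overlapped.

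Of the 20 RGC markers, 19 or 20 had a peak in every library, with summed folds of 120 to 132 in GFP, 125 to 130 in Ezh2, and 125 and 126 in Ezh2-Y726D. Müller glia markers were at 18 of 20 in all 8 libraries. Amacrine markers were at 17 to 19 of 20 and bipolar markers at 16 to 19 of 19 in all libraries. All 9 cone markers had a peak in each GFP library, 8 or 9 of them with Ezh2, but 6 and 5 with Ezh2-Y726D, with summed folds of 39.9 to 42.3, 39.1 to 45.2, and 23.4 to 26.6. Rod markers were at 17 of 19 with GFP, 15 or 16 with Ezh2, but 13 and 17 with Ezh2-Y726D, with summed folds of 90.3 to 98.7, 87.8 to 97.6, and 66.3 and 91.7. T cell, pan-leukocyte, microglia and cone markers were thus lower in Ezh2-Y726D while GFP and Ezh2 overlapped in their summed folds. This follows the Ezh2-Y726D side of the rule but not its GFP side, and the part of these markers in the Ezh2-only regions was not tested.

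**Figure D5:**
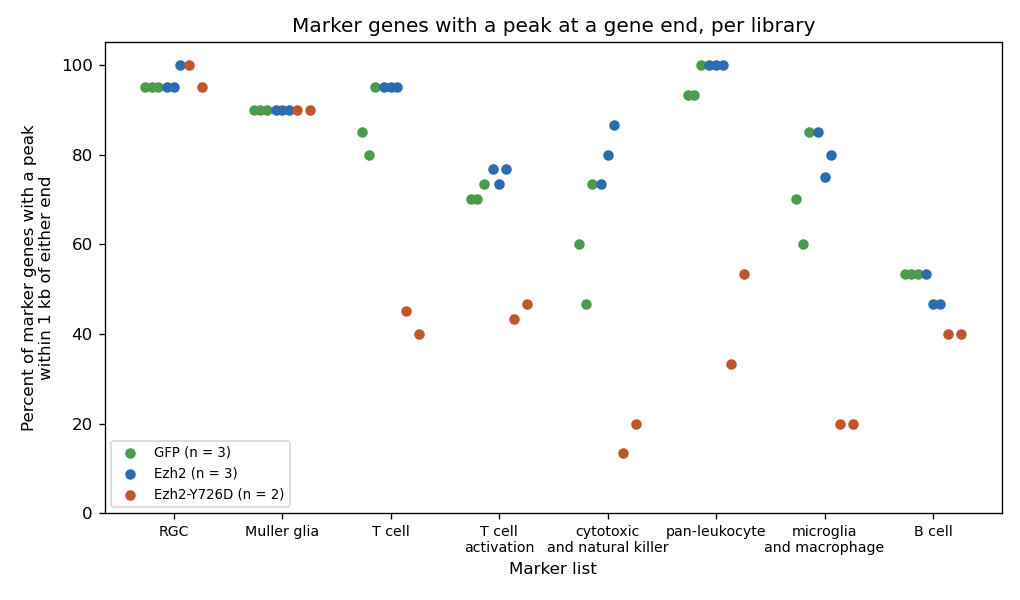
Percent of the genes of 8 marker lists (x axis) with a peak within 1 kb of either gene end (y axis), with a point for each library. RGC and Müller glia markers are at 90 to 100% in all 8 libraries, while the T cell and pan-leukocyte lists are at 80 to 100% in GFP and Ezh2 and at 33.3 to 53.3% in Ezh2-Y726D.

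The gene with most Ezh2-only regions was the immunoglobulin heavy chain locus Igh, with 22, or 21.8% of its regions, over 2751 kb of chromosome 12. The highest (114914426 to 114914975) had folds of 7.82, 6.69 and 4.80. Outside the Ezh2-only regions, the locus had 49, 47 and 58 regions with a peak in Ezh2 replicates 1 to 3, against 22, 24 and 37 in GFP and 17 in each Ezh2-Y726D library. The groups did not overlap, but Igh was picked for its Ezh2-only regions, so these counts are not independent of the rule. In Igh, 47 regions had a peak in 3 Ezh2 and no Ezh2-Y726D lists, and 22 of them were Ezh2-only. The others of the 47 missed the rule by a GFP peak and are among the regions counted here. How often the groups separate in this way over all genes was not tested. Gene segments of Igh are near-identical copies, so the position of reads within the locus is uncertain. B cell genes had 1 Ezh2-only region, in Bank1, among 81 (1.23%). Of 15 B cell genes, 8 had a peak within 1 kb of an end in each GFP library. The numbers were 8, 7 and 7 in Ezh2 replicates 1 to 3 and 6 in each Ezh2-Y726D library. Cd79b, Pax5, Ms4a1 and Cd22 were among those with none in any of the 8 libraries.

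After Igh came long genes. Wwox, which spans 913 kb, had 7 of 109 regions, Hecw2, a ubiquitin ligase, 6 of 31, Rad51b, of recombination repair, 6 of 82, and Mta3, a subunit of the NuRD chromatin remodeler, 5 of 14. Outside the Ezh2-only regions, the peaks in Rad51b numbered 44, 45 and 49 for the GFP libraries, 45, 41 and 46 for Ezh2 and 41 and 44 for Ezh2-Y726D, so that groups overlapped there. In Hecw2 the numbers were 11, 15 and 17, then 17, 15 and 18, then 15 and 15. At Themis they were 4, 4 and 2, then 6, 5 and 7, then 6 and 4. In all 2248 genes held at least 1 Ezh2-only region, 405 at least 2 and 15 at least 5.

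Ezh2 itself held 3 of its 13 regions. The highest (chromosome 6, 47545596 to 47545992) had folds of 5.86, 7.15 and 6.54. The region at 47540594 to 47540918 had 4.40, 4.39 and 5.89 and that at 47559902 to 47560158 had 3.88, 3.36 and 3.25. Among the remaining regions of the gene, GFP libraries had peaks in 3, 5 and 6, Ezh2 libraries in 5, 7 and 6, and Ezh2-Y726D libraries in 4 and 4, so that groups overlapped. Reads of the vector's Ezh2 sequence and of the gene cannot be told apart, and whether these regions lie over exons was not analysed here. The Ezh2-Y726D virus also carried an Ezh2 sequence, and by the rule its libraries had no peak in these regions. The source of the reads was not tested.

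The other PRC2 genes with an Ezh2-only region were Aebp2 (folds of 3.91, 3.46 and 3.83), Jarid2 and Lcor, with 1 each, which brought this list to 6 of 99 regions (6.06%). Among 25 developmental transcription factors that are known Polycomb targets, Pax2 and Lhx2, both of early eye development, held 1 region each (2 of 79, 2.53%, near the 1.98% of all regions). Their folds were 4.40, 3.46 and 3.05 at Pax2 and 3.42, 3.92 and 3.27 at Lhx2. Both shares rest on few regions.

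Beside the background of 1.98%, axon guidance, channel and receptor, and amacrine genes had the lowest shares above 0, and those of RGC, bipolar, cone and Müller glia genes rest on 2 to 4 regions each and lay near it. Among RGC markers Jam2, an adhesion molecule, showed folds of 5.37, 3.92 and 4.80, and Rbpms, the pan-RGC RNA-binding protein, 2.66, 3.70 and 3.75 (2 of 145 regions, 1.38%). The axon guidance genes were Slit3 (4.88, 5.31 and 3.71), Ntn4 (3.18, 3.46 and 4.58), Dcc and Nrp1, and the channel and receptor genes Nalcn (4.22, 3.79 and 3.09) and Grin2b (3.66, 3.69 and 3.27). Shares were 1.40% for bipolar cell genes (4 of 286), 2.02% for cone (2 of 99), 2.06% for Müller glia (2 of 97), 1.00% for endothelial (1 of 100) and 0.296% for amacrine genes (1 of 338), and 0 of 77 for rod genes. Of genes that the study names as lowered by Ezh2 in RNA, Tnr, an extracellular matrix protein, held 2 regions (2 of 169, 1.18%), and those named as raised held 0 of 27.

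The share of each library's peaks within 10 kb of an Ezh2-only region was compared between GFP and Ezh2-Y726D, neither of which has a peak in these regions. The rule used the same lists, 3 of GFP and 2 of Ezh2-Y726D, so the comparison was not independent of it. With all 3 Ezh2 peaks, 6791 regions had all 3 GFP peaks and no Ezh2-Y726D peak. Both Ezh2-Y726D peaks and no GFP peak were found in 934. The share near Ezh2-only regions was 4.98, 4.91 and 5.03% in GFP, 4.21 and 4.25% in Ezh2-Y726D and 5.31, 5.17 and 5.18% in Ezh2. The Ezh2-Y726D libraries were below every GFP library, by 0.744 percentage points on average (4.23 ± 0.0315 against 4.97 ± 0.0602%, SD, n = 2 and 3). A two-sided exact permutation test gave p = 0.1, the smallest that 3 against 2 samples allow, so the difference could not pass the threshold in this design.

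Shared regions beside the Ezh2-only ones were compared by limma on ranks of fold, over the 68278 regions with a peak in all 8 libraries, of which 3090 lay within 10 kb. Between Ezh2-Y726D and GFP, 122 of the 3090 (3.95%) were called higher in Ezh2-Y726D, beside 3.58% of all shared regions, and 152 (4.92%) lower, beside 4.70%. These shares lay near the background and are no result about the neighbours. Between Ezh2 and GFP, 39 (1.26%) were called higher with Ezh2, beside 1.61% of all, and 144 (4.66%) lower, beside 2.86%. Between Ezh2 and Ezh2-Y726D, 197 (6.38%) were called higher with Ezh2, beside 7.09%, and 381 (12.3%) lower, beside 7.01%. The last 2 comparisons involve the group that chose the regions and share the Ezh2 samples, and with ranks by p-value in place of fold the lower share fell to 2.85% (2.57% of all) and 6.86% (5.78% of all), while 11.003% (8.56% of all) were higher with Ezh2 than with Ezh2-Y726D.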

How the data were processed

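ATAC-seq libraries of sorted RGCs (3 GFP, 3 Ezh2, 2 Ezh2-Y726D, grouped by title) had been processed by the authors with cutadapt, Bowtie2, SAMtools, Picard, MACS2 and deepTools on GRCm38, per the submitters' processing notes, which give no versions. The authors called peaks per library, not on pooled samples. The deposited fold is a ratio of pileup to background in the same library, −log10 p-value and q-value columns hold what the authors' peak caller wrote, the deposited score is a rescaled q, and the deposited summit is an offset. Read numbers are not in these lists, so depth was judged only from the step of low folds, each checked against its p-value. The replicate numbers in peak names were those of the titles, except that Ezh2-Y726D replicates 1 and 2 carried 2 and 3.

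Peaks on chromosomes 1 to 19 that shared at least 1 bp were merged. Genes (1 kb margin), promoters and miRNAs came from RefSeq tables of GRCm38.p6, and a region was assigned to a gene it overlapped or, failing that, to the nearest. Motifs were searched as plain letters on both strands. Folds of regions with a peak in all 8 lists were ranked within a list, turned into normal scores and fitted with limma 3.58.1 in R 4.3.3 (8 samples in 1 fit, no block, Benjamini-Hochberg adjusted p under 0.05). The interval, depth and limma steps were tested on simulated data. Other computing used Python 3.11.15 and scipy 1.17.1. Alternatives were lists of equal length, −log10 q of at least 5, other margins and overlaps, a replicate block, and each library left out.

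Regions named are those in Ezh2, the 10 highest, the 6 highest at protein-coding starts, those of the 6 genes with most regions, up to 3 per gene list, and 3 on either side of the rule; promoters, miRNAs and other genes of the lists were added after values were seen. The regions and gene lists were chosen with earlier results of these data known. No genome sequence was used, so sequences of regions outside promoters and overlap with exons were not analysed here.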

Additional observations from a re-analysis of the deposited data

Results flagged for a closer look

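Chromosome X lies outside the chromosomes used above. Of its 3436 merged regions, 70 (2.04%) were Ezh2-only by the same rule, beside 18 (0.524%) with a peak in all 3 GFP lists alone. It is given as data that no comparison used.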

How the results depend on the processing

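The number of Ezh2-only regions was 3045 with lists cut to equal length and 3050 with peaks of −log10 q of at least 5. Leaving out each library gave 3895 to 5950, with 5950 without GFP replicate 3 and 5631 without Ezh2 replicate 2. The share at gene ends was 22.1% with a margin of 3 kb and 10.1 to 11.2% over left-out libraries. Without GFP replicate 3, the share of T cell regions that were Ezh2-only rose from 5.41 to 13.7% and that of T cell activation regions from 10.8 to 15.5%, where the background was 3.24%. For peaks beside the regions, left-out libraries gave differences of -0.776 to -0.715 percentage points. Within 50 kb, 3.09% of shared neighbours were lower with Ezh2 than GFP (2.86% of all). With ranks by −log10 p, 2.07% were higher and 8.54% lower in Ezh2-Y726D than GFP (3.01 and 7.13% of all), 2.85% lower with Ezh2 than GFP (2.57%), and 11.003% higher and 6.86% lower with Ezh2 than Ezh2-Y726D (8.56 and 5.78%). Left-out libraries gave 0.129 to 3.69% higher (0.343 to 3.50% of all) and 1.29 to 4.43% lower (1.10 to 4.43%) for Ezh2-Y726D against GFP, 0.356 to 0.906% (0.450 to 1.19%) and 1.55 to 3.56% (0.999 to 2.25%) for Ezh2 against GFP, and 3.17 to 6.18% (2.84 to 6.78%) and 4.63 to 12.3% (2.26 to 6.85%) for Ezh2 against Ezh2-Y726D. The cause of these shifts was not tested. Same-numbered replicates did not pair: deviations from group means correlated between -0.0152 and 0.0490 over 7 pairs. With a replicate block the neighbours called were 3.01% higher and 3.72% lower for Ezh2-Y726D against GFP (3.11 and 3.83% of all), 0.906% and 3.37% for Ezh2 against GFP (1.06 and 2.09%), and 5.37% and 9.87% for Ezh2 against Ezh2-Y726D (5.78 and 5.91%). Of 128 alternative values, 93 stayed within their limits and 35 moved. Depth limits what a missing peak means, since the lists do not give reads below the call.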

Other observations

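Of the 2248 genes with at least 1 Ezh2-only region, Cd200r3 and Cd200r1 on chromosome 16, which encode receptors of the CD200 receptor family, are given as values only and were chosen after their values were seen. The region at Cd200r3 had folds of 8.41, 6.23 and 5.89 in Ezh2 replicates 1 to 3, and that at Cd200r1 had 7.08, 5.08 and 4.58.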
